A study of Mus musculus with 4 samples.

Results

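The genes described here are those for the factors that start and extend protein synthesis on the ribosome, taken as every row of the deposited tables whose symbol begins with Eif1 to Eif6, Eef1 or Eef2. The rule found 67 of 23420 rows, and all 67 were among the 16077 genes tested. They comprise 51 genes of initiation factors and their partners, 4 genes of eIF2 kinases, 8 rows under elongation factor symbols and 4 Argonaute genes that the tables list under their older symbols Eif2c1, Eif2c2, Eif2c3 and Eif2c4. RNA was sequenced from hair cells (HC, GFP positive) and non-hair cells (NHC, GFP negative) of Atoh1-GFP mice on a CD1 background, in which a transgenic reporter marks cells that use the Atoh1 gene. Cochleae were taken at postnatal day 1, kept in organ culture overnight in medium with penicillin and then either left untreated or exposed to 0.5 mM gentamicin for 3 h, so that all 4 groups share the reporter, the culture and the penicillin. There were 3 replicates in each of the control hair cell, gentamicin-treated hair cell, control non-hair cell and gentamicin-treated non-hair cell groups. The hair cell groups hold all cells of the bright GFP gate, inner and outer hair cells together, and the non-hair cell groups are a mixture of supporting cells, other cochlear epithelium and surrounding tissue. In bulk samples such as these, fewer cells of a type and less RNA per cell cannot be told apart.

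Initiation begins when eIF2, loaded with GTP and the initiator tRNA, joins the small ribosomal subunit together with eIF1, eIF1A, eIF3 and eIF5. The cap-binding complex of eIF4E, eIF4G and the helicase eIF4A brings the mRNA, and eIF2B reloads eIF2 for the next round. Stress kinases that phosphorylate the alpha subunit of eIF2 turn eIF2 into an inhibitor of eIF2B and so slow initiation. During elongation eEF1A delivers aminoacyl-tRNAs, eEF1B recharges eEF1A and eEF2 moves the ribosome along the mRNA. Gentamicin is an aminoglycoside antibiotic that binds bacterial ribosomes and is toxic to hair cells.

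The values are normalised read scores, in which reads per gene were scaled in each replicate and 1 was added, so that a gene without reads has a score of 1. Between 22400577 and 28152173 reads per replicate could be recovered from the scores. Hair cell markers summed to 11520–11930 in control hair cells, 9643–10780 in treated hair cells and 262–318 in non-hair cells. Of the 8, Atoh1, Gfi1 and Espn were higher and Otof, Myo7a and Cdh23 lower in every treated hair cell replicate. In treated hair cells the summed mesenchyme markers were 293–384 against 471–704 in the controls and 5129–9232 in non-hair cells, with 4 of the 6 lower in every treated hair cell replicate. Supporting cell markers summed to 1860–2184 in control and 964.5–1582 in treated hair cells, and 4 of the 8 were lower in every treated replicate. In non-hair cells they summed to 1237–2269 without and 883–1951 with gentamicin, so this sum does not separate the populations. Macrophage markers summed to 4.52–5.26 in control and 14.8–21.4 in treated hair cells. However, 3 of the 5, Csf1r, C1qa and Ptprc, stayed under a score of 2 in all hair cell replicates. Of the others, Cd68 scored 2.13–2.84 in control hair cells, 10.9–17.9 in treated hair cells and 7.65–12.5 in non-hair cells. C1qb scored 3.4–4.0 in control and 4.1–4.6 in treated hair cells. Red blood cell genes were highest in control non-hair cell replicate 1, at 62.3, and in gentamicin-treated hair cell replicate 2, at 14.1.

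In gentamicin-treated hair cells Eef1a1, Eef1a2, Eef1g and Eef2 of the elongation machinery fell. Among the 51 genes of initiation factors and their partners, 15 of the 20 called changes were increases. These 15 include Eif4a3, of the exon junction complex, and the eIF4E carrier Eif4enif1. The falls include Eif4ebp2, a repressor of eIF4E. Of the 67 members, 17 rose and 11 fell at an adjusted p under 0.05, where 14.8% of all genes tested rose and 18.4% fell. Counted by class, 15 of the 51 initiation genes rose and 5 fell, 1 of the 4 eIF2 kinases rose, and 4 of the 8 rows under elongation symbols fell and 1 rose. The median log2 difference was 0.08 for initiation genes, 0.01 for the kinases and -0.44 for the elongation rows, against -0.09 for all genes tested. The elongation row that rose was Eef1e1, which encodes a protein of the aminoacyl-tRNA synthetase complex. Of the 6 genes for eEF1A, the eEF1B subunits and eEF2, 4 fell and 0 rose. Replicates did not overlap, with every treated value above every control value, for 24 members, and they lay below without overlap for 16. The corresponding shares of all genes tested were 21.7% and 33.1%. Under scaling by total reads 22 members rose and 10 fell (19.8% and 12.2% of all genes), and the directions of the 28 called members were the same under both other scalings.

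**Figure D1:**
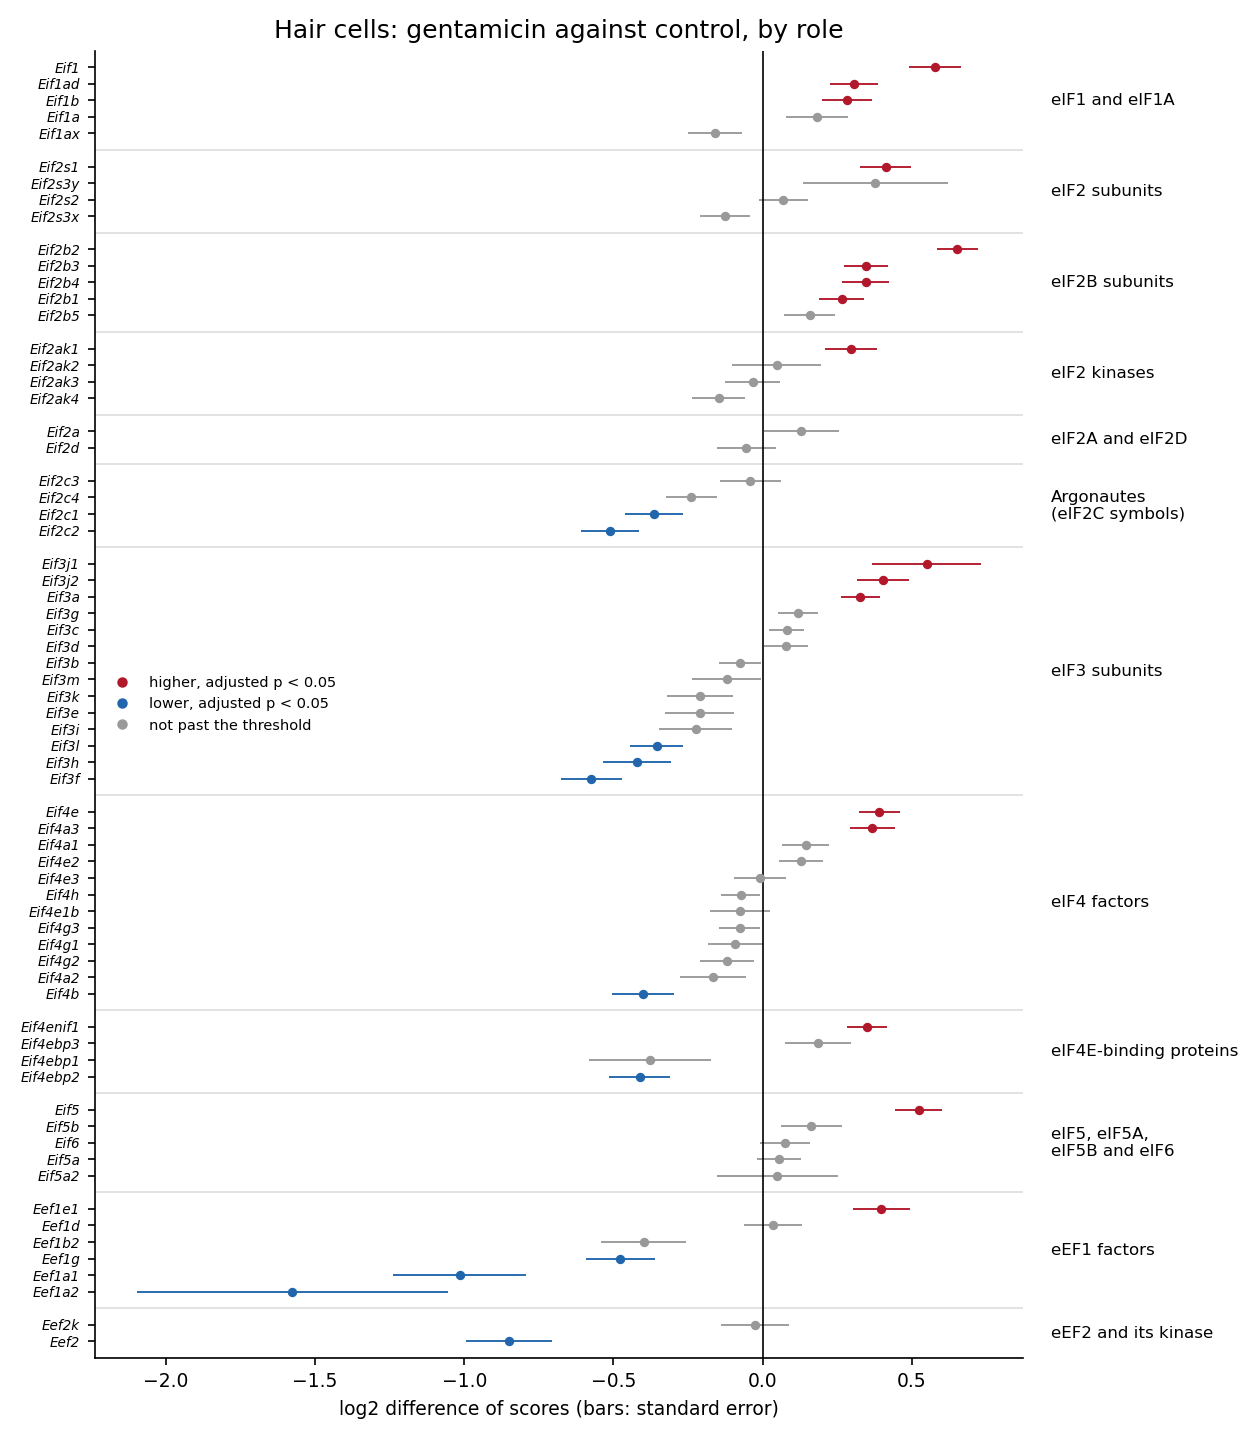
Log2 difference in normalised read score between gentamicin-treated and control hair cells for each of the 67 members, grouped by role, with the limma standard error as a bar (red, higher and blue, lower at an adjusted p under 0.05; grey, not past it). Eef1a2, Eef1a1 and Eef2 lie farthest to the left, at -1.58, -1.02 and -0.85, and Eif2b2, Eif1 and Eif3j1 farthest to the right, at 0.65, 0.58 and 0.55.

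Among the elongation factors, Eef1a1 encodes the main form of eEF1A and lies on chromosome 9 (78478449–78489151, mm10, gene positions from GENCODE M21). It scored 4824, 4780 and 4457 in control hair cells and 2558, 2042 and 2382 in treated ones. The treated values all lay below the controls. Eef1a1 fell by 1.02 on the log2 scale (standard error 0.22, adjusted p = 0.00566). In non-hair cells it scored 8949, 7433 and 7402 without and 8273, 7498 and 6250 with gentamicin, and these ranges overlapped (log2 difference -0.11, adjusted p = 0.833). The responses of hair cells and non-hair cells differed by -0.90, which did not pass the threshold (adjusted p = 0.0808). It passed in 4 of 7 other settings, with an offset of 0.1, a minimum of 1000 reads, the replicate block or no variance trend, and in 0 of the 12 leave-one-out fits. Processed copies of Eef1a1 are scattered in the mouse genome, and 50 bp reads can be split among such copies.

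Eef2, the gene for the translocase, lies on chromosome 10 (81176631–81182498). It scored 3009, 3153 and 2898 in control hair cells and 1736, 1675 and 1613 in treated ones. Every treated value lay far below every control value. Eef2 fell by 0.85 on the log2 scale (standard error 0.15, adjusted p = 0.00144). Its non-hair cell scores were 3471, 3248 and 3163 without and 3001, 2538 and 2675 with gentamicin. These also did not overlap, but the difference of -0.27 did not pass the threshold (adjusted p = 0.366), nor did the difference between the responses (-0.58, adjusted p = 0.0836), which passed with a minimum of 1000 reads and with no variance trend. Eef2k, the kinase that inhibits eEF2, scored 75.2–82.8 in control and 74.6–83.3 in treated hair cells.

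Of the eEF1B subunits, Eef1g (gamma) fell from 536 ± 15.1 (SD, n = 3) to 386 ± 29.2 (SD, n = 3), by 0.48 on the log2 scale (adjusted p = 0.00972). Eef1b2 (beta) scored 228–230 in control and 160–196 in treated hair cells, without overlap, and its difference of -0.40 did not pass (adjusted p = 0.0519). It passed in 4 of 8 other settings, with an offset of 0.1, a minimum of 1000 reads, the replicate block (adjusted p = 0.0201) or the compared groups alone, and in 1 of 6 leave-one-out fits. Eef1d (delta) differed by 0.04 only (adjusted p = 0.814). Eef1e1 rose from 14.4 ± 0.695 (SD, n = 3) to 19.0 ± 1.81 (SD, n = 3), a log2 difference of 0.40 (adjusted p = 0.00926).

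Eef1a2, on chromosome 2 (181147653–181157014), encodes the form of eEF1A found in adult neurons and muscle. Its scores in hair cells were low, at 9.56, 26.0 and 10.9 in the controls and 3.72, 4.14 and 6.63 after treatment. Control replicate 2 stood well above the other controls, but no treated value reached a control value. The log2 difference was -1.58 (standard error 0.52, adjusted p = 0.0380). It did not pass without control replicate 2, control replicate 3, treated replicate 1 or treated replicate 2, with differences of -1.13 to -1.85 over the 6 fits. In non-hair cells it scored 63.0, 160 and 137 without and 54.5, 26.9 and 102 with gentamicin, which overlapped. A list of neuronal genes, Nefh, Stmn2, Prph and Tubb3, was picked after these values had been seen. Its summed score was 38.0, 79.0 and 47.1 in control and 24.8, 21.3 and 30.3 in treated hair cells, highest in control replicate 2 as for Eef1a2. In non-hair cells the sums were 192, 433 and 439 without and 191, 99.5 and 328 with gentamicin. The part of neuronal RNA in the Eef1a2 result was not tested.

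**Figure D2:**
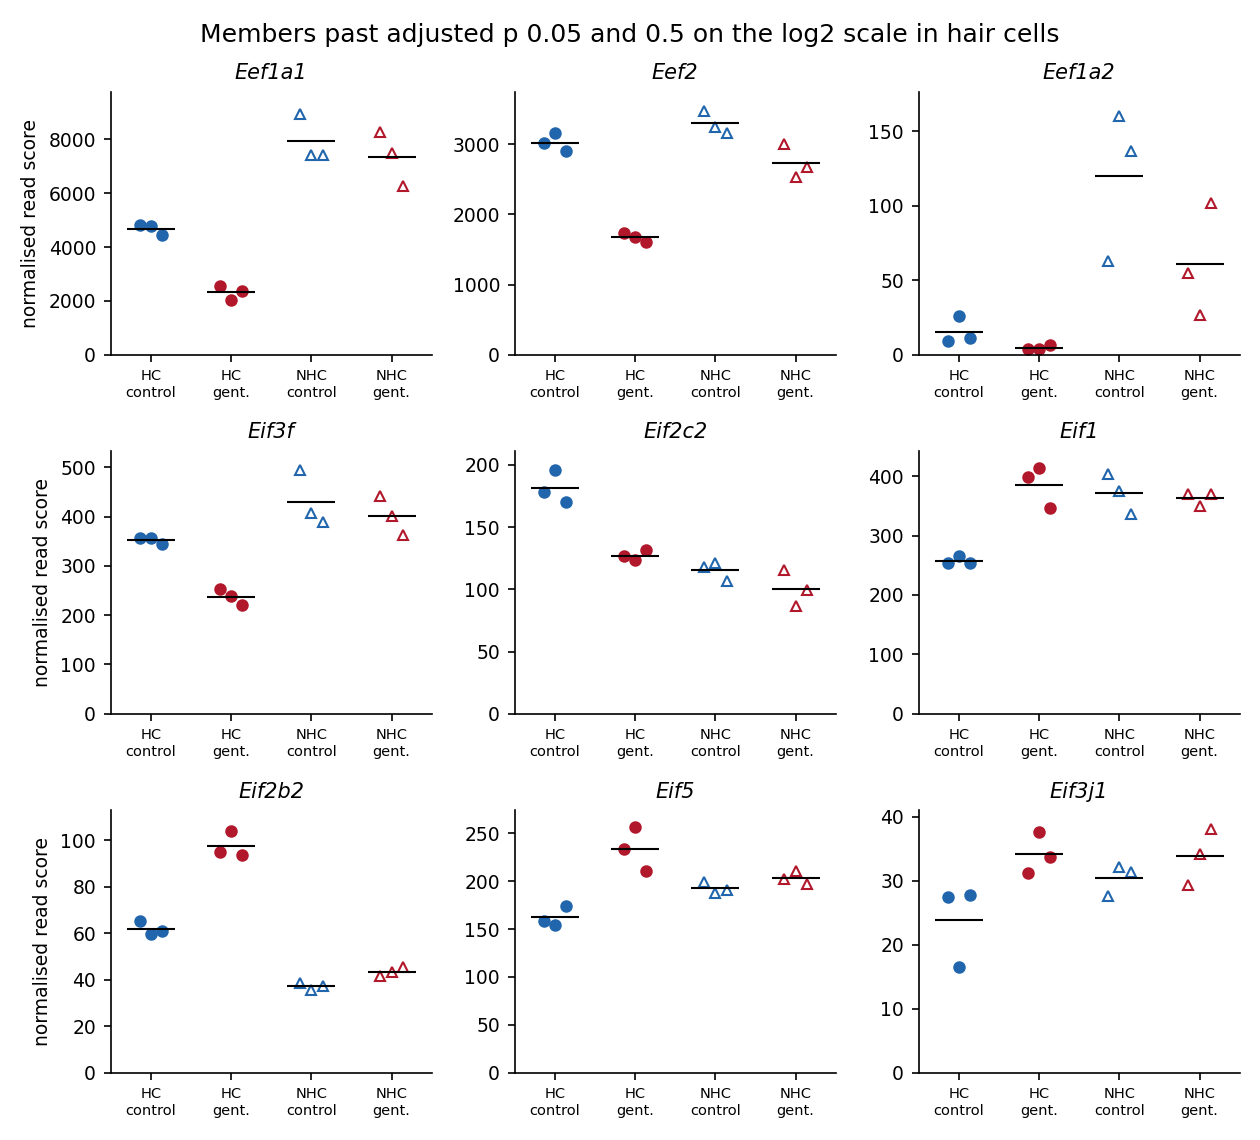
Normalised read score of each replicate (points; bar, mean of 3) in control and gentamicin-treated hair cells (HC, filled) and non-hair cells (NHC, open) for the 9 members that passed the threshold with a log2 difference of at least 0.5 in hair cells. In hair cells the treated replicates of Eef1a1, Eef2, Eef1a2, Eif3f and Eif2c2 lie below all controls, and those of Eif1, Eif2b2, Eif5 and Eif3j1 above all controls.

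As shares of all reads recovered in a replicate, the 6 eEF1 rows took 0.515–0.554% in control and 0.276–0.344% in treated hair cells, and Eef2 with Eef2k took 0.288–0.314% and 0.176–0.190%. All other members together took 0.820–0.833% in control and 0.860–0.892% in treated hair cells. In non-hair cells the other members took 0.846–0.903% without and 0.895–0.935% with gentamicin, and the eEF1 rows had medians of 0.881% and 0.900%. The ranges of control and treated replicates overlapped there, except for Eef2 with Eef2k, at 0.320–0.348% and 0.263–0.306%. Eef1a1 was also higher in non-hair cells, and the summed mesenchyme markers were lower in treated than in control hair cells. The supporting cell sum was lower there too, but its range overlapped between hair cells and non-hair cells. The part of RNA from other cells in the falls of Eef1a1 and Eef2 was not tested.

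**Figure D3:**
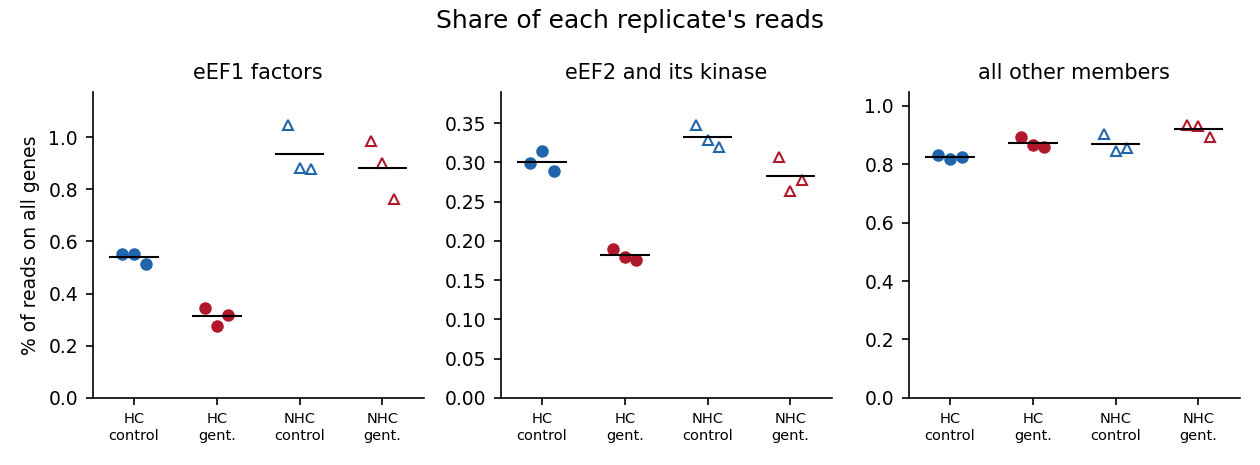
Share of each replicate's recovered reads, in percent, on the 6 eEF1 rows, on Eef2 with Eef2k and on all other members (points, replicates; bar, mean; filled, hair cells; open, non-hair cells). In hair cells the elongation shares are lower with gentamicin, at most 0.344% and 0.190%, while the share of the other members is 0.860–0.892% against 0.820–0.833% in controls.

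Among the initiation factors, Eif1 and Eif5 act in the choice of the start codon, eIF1 by keeping the scanning complex open and eIF5 by promoting GTP hydrolysis on eIF2. Eif1, on chromosome 11 (100319885–100322096), scored 254, 266 and 254 in control hair cells and 398, 413 and 346 in treated ones. All treated values lay above the controls and within or close to the non-hair cell range of 337–403 in control replicates. Eif1 rose by 0.58 on the log2 scale (standard error 0.09, adjusted p = 0.000661) and passed whichever of the 6 hair cell replicates was left out. Eif5, on chromosome 12 (111538016–111546752), scored 158, 154 and 174 in control and 234, 256 and 211 in treated hair cells. The replicates did not overlap, and Eif5 rose by 0.52 (standard error 0.08, adjusted p = 0.000668).

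The related Eif1b rose by 0.28 (adjusted p = 0.0249), but passed in 1 of the 6 leave-one-out fits, the one without treated replicate 3. Eif1ad, which encodes a protein with an eIF1A-like domain, rose by 0.31 (adjusted p = 0.0137). Neither gene for eIF1A passed. Eif1a scored 40.1, 35.3 and 38.2 in control and 41.2, 41.4 and 46.2 in treated hair cells, and Eif1ax 39.2, 35.3 and 36.6 against 35.5, 30.0 and 34.0. Their log2 differences were 0.18 (adjusted p = 0.204) and -0.16 (adjusted p = 0.201). In non-hair cells the control scores were 73.9, 56.4 and 59.7 for Eif1a and 55.9, 49.1 and 52.6 for Eif1ax, and the treated scores were 59.3, 66.4 and 58.0 and 59.3, 62.6 and 52.7. The pairs Eif1 and Eif1b, and Eif1a and Eif1ax, are close in sequence, so that their short reads may be partly shared.

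For eIF2 itself, Eif2s1 (the alpha subunit, which the kinases phosphorylate) scored 53.9–60.7 in control and 72.7–81.8 in treated hair cells and rose without overlap (log2 difference 0.41, adjusted p = 0.00435). Eif2s2 (beta) differed by 0.07 (adjusted p = 0.550). Eif2s3x (gamma, on chromosome X) scored 266, 238 and 254 in control and 248, 214 and 233 in treated hair cells, and in non-hair cells 187, 172 and 184 without and 196, 200 and 168 with gentamicin. Its Y-linked copy Eif2s3y scored 31.5, 43.9 and 45.6 in control and 52.4, 68.5 and 38.6 in treated hair cells, and 30.9, 44.9 and 40.2 without and 38.0, 31.7 and 53.2 with gentamicin in non-hair cells. In hair cells neither gene passed (log2 differences -0.12 and 0.38, adjusted p = 0.278 and 0.257). Within each population the replicates with the highest and the lowest Eif2s3y were also those with the highest and the lowest sum of the Y-linked genes Ddx3y, Kdm5d and Uty, a list picked after the values had been seen. That sum was highest in treated hair cell replicate 2, at 153, and lowest in control hair cell replicate 1, at 59.5. The X-linked gene Xist scored 864–1461 in control and 251–779 in treated hair cells, lowest in treated replicate 2. In non-hair cells it scored 1012–1679 without and 462.5–1389 with gentamicin. The number of male and female pups behind each replicate is not given in the sources used here. Its part in Eif2s3y and in the X-linked members Eif2s3x and Eif1ax was not tested.

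Of the 5 genes for subunits of eIF2B, the exchange factor that reloads eIF2, 4 rose in hair cells and 0 fell, with a median log2 difference of 0.35, where 14.8% of all genes rose. Eif2b2 (beta, chromosome 12, 85219481–85226628) scored 65.2, 59.7 and 61.0 in control and 94.8, 104 and 93.5 in treated hair cells. The replicates were far apart, and Eif2b2 rose by 0.65 (standard error 0.07, adjusted p = 9.96e-05), the largest increase among the 67 members. Eif2b3 (gamma) rose by 0.35 (adjusted p = 0.00505) and Eif2b4 (delta) by 0.35 (adjusted p = 0.00707). Eif2b1 (alpha) rose by 0.27 (adjusted p = 0.0194), but not past the threshold without control replicate 2 or 3 or treated replicate 2. Eif2b5, the catalytic epsilon subunit, differed by 0.16 (adjusted p = 0.178). In non-hair cells the replicates of all subunit genes but Eif2b4 were higher with gentamicin without overlap, with log2 differences of 0.06 to 0.39 over the 5 genes, and none passed. The difference between the responses passed for Eif2b2 (0.42, adjusted p = 0.0175) and not for the other 4 genes.

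The 4 eIF2 kinases respond to different stresses: Eif2ak1 (HRI) to heme shortage and mitochondrial stress, Eif2ak2 (PKR) to double-stranded RNA, Eif2ak3 (PERK) to unfolded proteins in the endoplasmic reticulum and Eif2ak4 (GCN2) to amino acid shortage. Their activity is set by phosphorylation, which RNA levels do not measure. Eif2ak1 scored 29.7, 28.8 and 27.9 in control and 34.1, 35.9 and 36.0 in treated hair cells. These did not overlap, and Eif2ak1 rose by 0.30 (standard error 0.09, adjusted p = 0.0232). It did not pass without control replicate 2 or 3 or without treated replicate 2 or 3. Its non-hair cell scores of 41.4, 34.7 and 41.2 without and 43.8, 50.9 and 48.5 with gentamicin gave nearly the same difference, 0.29, which did not pass (adjusted p = 0.138). The difference between the responses had an adjusted p of 0.984.

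Eif2ak2 scored 33.7, 31.4 and 35.1 in control and 32.2, 38.6 and 33.0 in treated hair cells. Eif2ak3 scored 28.6, 29.6 and 24.7 against 25.8, 29.6 and 25.6, and Eif2ak4 89.3, 94.7 and 82.2 against 78.2, 82.5 and 79.3. The ranges overlapped for each of these kinases, with log2 differences of 0.05 (standard error 0.15), -0.03 (standard error 0.09) and -0.15 (standard error 0.09). In non-hair cells Eif2ak2 scored 101, 65.5 and 63.3 without and 64.5, 61.2 and 63.7 with gentamicin, the highest value being that of control replicate 1. Eif2ak3 scored 52.1, 57.5 and 49.3 against 49.8, 51.7 and 52.2, and Eif2ak4 57.0, 57.1 and 50.4 against 55.7, 58.2 and 47.3, again with overlap.

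**Figure D4:**
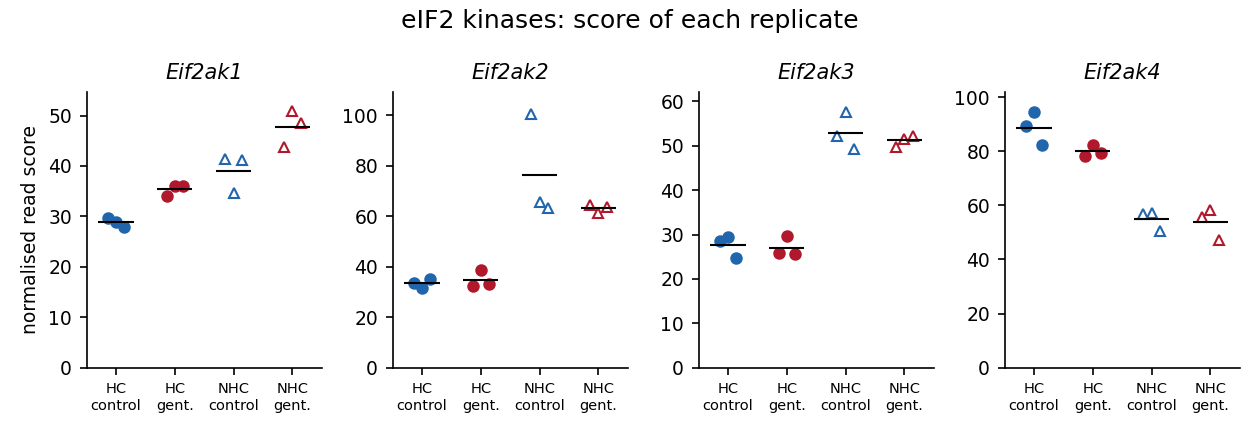
Normalised read score of each replicate (points; bar, mean of 3) for the 4 eIF2 kinases in control and gentamicin-treated hair cells (HC, filled) and non-hair cells (NHC, open). Eif2ak1 is higher with gentamicin in both populations, by 0.30 and 0.29 on the log2 scale, and Eif2ak4 is the only kinase with higher scores in hair cells than in non-hair cells.

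The eIF3 complex is the scaffold between the small subunit and the mRNA. Of its 14 rows 3 rose, 3 fell and 8 did not pass, where 14.8% of all genes tested rose and 18.4% fell. Eif3f, on chromosome 7 (108934417–108942951), scored 357, 357 and 345 in control and 252, 239 and 221 in treated hair cells. The groups did not overlap, and Eif3f fell by 0.57 (standard error 0.10, adjusted p = 0.00178). Eif3h, which pairs with Eif3f in the complex, fell by 0.42 (adjusted p = 0.0158), but not past the threshold without control replicate 2 or treated replicate 2, and Eif3l fell by 0.36 (adjusted p = 0.0113). Eif3a, the largest subunit, rose from 284 ± 11.6 (SD, n = 3) to 357 ± 17.8 (SD, n = 3), a log2 difference of 0.33 (adjusted p = 0.00338). Both genes for the loosely bound subunit eIF3j rose. Eif3j1, on chromosome 2 (122028546–122056598), scored 27.4, 16.6 and 27.8 in control and 31.3, 37.6 and 33.7 in treated hair cells, with control replicate 2 far below the others. Its log2 difference was 0.55 (standard error 0.18, adjusted p = 0.0377), and it was 0.31 and did not pass without that replicate. It also did not pass when any 1 treated replicate was left out or when the model held hair cell data alone. Eif3j2 rose by 0.40 (adjusted p = 0.00506), and the 2 genes are near copies that 50 bp reads may not separate. The 8 rows that did not pass, Eif3b, Eif3c, Eif3d, Eif3e, Eif3g, Eif3i, Eif3k and Eif3m, differed by -0.22 to 0.12.

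In the eIF4 group, 2 of 12 rows rose, 1 fell and 9 did not pass, where 14.8% of all genes tested rose and 18.4% fell. Eif4e, the cap-binding protein, rose from 89.0 ± 4.39 to 117 ± 8.62 (SD, both n = 3; log2 difference 0.39, adjusted p = 0.00163). Eif4a3, a helicase of the exon junction complex, rose by 0.37 (adjusted p = 0.00392). Eif4b, which stimulates the helicase, fell by 0.40 (adjusted p = 0.0134), although not past the threshold without control replicate 2. The eIF4A helicases of initiation scored as follows in hair cells: Eif4a1 386, 363 and 353 in controls and 413, 399 and 405 with gentamicin, and Eif4a2 609, 605 and 641 against 606, 570 and 484. Eif4a1 values did not overlap and Eif4a2 values did, and neither passed (log2 differences 0.14 and -0.17, adjusted p = 0.189 and 0.275). In non-hair cells Eif4a1 scored 510, 436 and 448 without and 536, 567 and 510 with gentamicin, and Eif4a2 605, 598 and 610 against 618, 488 and 485. Per kilobase of the longest coding transcript, Eif4a1 stood at 0.84–0.968 times Eif4a2 in control hair cells, at 1.04–1.28 times in treated hair cells, at 1.11–1.29 times in control and at 1.32–1.78 times in treated non-hair cells. The scaffolds Eif4g1, Eif4g2 and Eif4g3 differed by -0.09, -0.12 and -0.08 in hair cells, and none passed.

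Among the eIF4E-binding proteins, Eif4ebp2, a repressor of eIF4E that mTORC1 inactivates, fell from 40.4–42.4 to 27.4–37.4 (ranges of 3 replicates; log2 difference -0.41, adjusted p = 0.0106). Eif4enif1, which carries eIF4E into the nucleus and into mRNA granules, rose from 105 ± 4.28 to 134 ± 9.68 (SD, both n = 3; log2 difference 0.35, adjusted p = 0.00288). Eif4ebp1 and Eif4ebp3 differed by -0.38 and 0.19 and did not pass. Of the genes for eIF5A, Eif5a scored 371, 347 and 358 in control and 379, 373 and 366 in treated hair cells, and Eif5a2 13.2, 16.1 and 14.8 against 17.2, 15.1 and 13.4. Both overlapped, with log2 differences of 0.06 and 0.05. In non-hair cells Eif5a scored 338, 304 and 317 without and 380, 412 and 357 with gentamicin, and Eif5a2 25.3, 36.3 and 38.6 against 25.1, 19.3 and 32.5. Eif5b, the GTPase of subunit joining, and Eif6, which keeps the ribosomal subunits apart, differed by 0.16 and 0.07 in hair cells without passing, as did Eif2a and Eif2d, by 0.13 and -0.05.

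The Argonaute rows carry eIF2C symbols, but Argonautes are the proteins that bind small RNAs in mRNA silencing and not subunits of eIF2. Eif2c2 (Ago2, chromosome 15, 73095844–73184935) scored 178, 196 and 170 in control and 127, 123 and 132 in treated hair cells. The groups did not overlap, and Eif2c2 fell by 0.51 (standard error 0.10, adjusted p = 0.00267). Eif2c1 (Ago1) fell by 0.36 (adjusted p = 0.0157), though not past the threshold under scaling by total reads, without control replicate 3 or without treated replicate 2. Eif2c4 was lower in every treated replicate with a difference of -0.24 that did not pass (adjusted p = 0.0507) but did in 5 of 8 other settings, and Eif2c3 differed by -0.04. In control non-hair cells Eif2c2 scored 118, 121 and 107, and in treated ones 116, 86.8 and 99.0.

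The sequences around the annotated starts of 3 genes that fell and 3 that rose by more than 0.5 are shown so that the start regions of members with opposite changes can be read side by side. They come from RefSeq (GRCm38.p6, the assembly also named mm10), which had promoter entries for 52 of the 67 members, and run from 70 bases before to 30 bases after the RefSeq start, 5′ to 3′ on the strand of the gene. Capitals mark matches, on either strand, to the TATA box TATAAA, its longer variant TATATAA, the cAMP response element TGACGTCA, the AP-1 motif TGANTCA, the amino acid response motif TGATGNAA, the E-box CACGTG or the ETS motif CCGGAAGT. None of these contains another. Eef1a1 is at chr9:78481695-78481794 (minus strand), Eef2 at chr10:81176561-81176660, Eif3f at chr7:108934345-108934444, Eif1 at chr11:100319879-100319978, Eif5 at chr12:111538031-111538130 and Eif2b2 at chr12:85219411-85219510 (plus strand).
Eef1a1: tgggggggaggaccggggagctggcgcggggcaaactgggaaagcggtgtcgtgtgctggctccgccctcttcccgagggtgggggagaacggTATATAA
Eef2: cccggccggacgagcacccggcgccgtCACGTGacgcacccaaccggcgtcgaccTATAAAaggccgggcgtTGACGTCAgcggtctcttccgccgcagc
Eif3f: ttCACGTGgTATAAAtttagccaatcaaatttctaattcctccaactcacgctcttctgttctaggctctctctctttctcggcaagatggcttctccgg
Eif1: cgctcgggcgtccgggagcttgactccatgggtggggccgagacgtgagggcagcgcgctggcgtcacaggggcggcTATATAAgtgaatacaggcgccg
Eif5: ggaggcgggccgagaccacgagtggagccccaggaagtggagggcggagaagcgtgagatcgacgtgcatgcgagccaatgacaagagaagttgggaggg
Eif2b2: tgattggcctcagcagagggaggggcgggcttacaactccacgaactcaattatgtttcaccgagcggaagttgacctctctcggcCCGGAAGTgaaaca

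In the Eef2 window TATAAA begins 15 bases before the start, CACGTG 43 bases before it and TGACGTCA at base 3 of the transcript. Eef1a1 and Eif1, which moved in opposite directions, both have TATATAA after the RefSeq start, from base 24 and from base 8. Both RefSeq starts lie inside the GENCODE genes, which begin at 78489151 (Eef1a1, minus strand) and 100319885 (Eif1). TATATAA is found in 3.24% of the 32851 full promoter entries, which are longer than these windows. The Eif2b2 window has CCGGAAGT from base 17, a motif in 3.89% of the full entries, and the Eif5 window has none of these motifs. Over the full promoter entries, which are all of 1 length, a gene counted as holding a motif if any of its entries did. The shares of all promoters are counted per entry instead, so the gene counts are not directly comparable with them. Among genes with an entry, TATAAA (13.6% of all promoters) was in 1 of the 15 that rose, 2 of the 8 that fell and 2 of the 29 others. CCGGAAGT was in 3 of 15, 1 of 8 and 5 of 29, and CACGTG (7.15% of all promoters) in 3 of 15, 2 of 8 and 7 of 29. TGACGTCA (1.79% of all promoters) was in the Eef2 promoter alone among the 52. TGATGNAA (3.97%) was in 0 of 15, 0 of 8 and 2 of 29, and TGANTCA (7.81%) in 2 of 15, 2 of 8 and 1 of 29.

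In non-hair cells no member passed the threshold with limma in either direction, where 0.236% of all genes tested rose and 0.106% fell. At an unadjusted p under 0.05 there were 15 members (22.4%), near the 17.1% of all genes tested. The median log2 difference of the members was 0.07, against -0.01 for all genes. Eif2b3 had the smallest adjusted p, with 17.4, 16.9 and 17.5 in control and 23.5, 21.7 and 22.9 in treated replicates, which did not overlap (log2 difference 0.39, adjusted p = 0.0578). It passed under scaling by total reads (adjusted p = 0.0434), together with Eif3b (0.36, adjusted p = 0.0494), where 0.585% of all genes rose and 0.124% fell. By the study's criteria, applied here to limma p-values, 5 members were higher and 1 lower (3.18% and 2.26% of all genes). Eif4b, at 493, 491 and 394 against 376, 330 and 312, also did not overlap (log2 difference -0.43, adjusted p = 0.0933). Its difference in hair cells was -0.40. Treated replicates lay above all controls for 17 members and below for 5, where the shares of all genes tested were 10.1% and 7.68%. The 17 included 4 eIF2B, 3 eIF3 and 7 eIF4 genes.

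The hair cell and non-hair cell responses were compared by their difference, in which the same control samples enter as in the comparisons above. The difference passed for 8 of the 67 members, 4 with a higher response in hair cells (Eif1, Eif2b2, Eif5 and Eef1e1) and 4 with a lower one (Eif3b, Eif3l, Eif4g1 and Eif4ebp2), where 6.85% and 6.57% of all genes tested passed. Eif1 had 403, 374 and 337 in control and 371, 349 and 370 in treated non-hair cells, which overlapped, and the difference between its responses was 0.61 (standard error 0.12, adjusted p = 0.0104). That of Eif5 was 0.45 (adjusted p = 0.0245) and that of Eef1e1 0.49 (adjusted p = 0.0356). For Eif3b and Eif4g1 the hair cell differences were -0.08 and -0.09 and the non-hair cell ones 0.34 and 0.36, with neither population past the threshold alone. Under scaling by total reads 8 members were higher and 1, Eif3b, was lower (9.33% and 4.45% of all genes).

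Of these 8, Eif1 was the 1 member whose difference between responses passed in all 12 fits that each left out 1 replicate. Eif2b2 lost its call without control hair cell replicate 2, and Eif3b without control hair cell replicate 1 or control non-hair cell replicate 2. Eif5 passed in 8 of the 12 fits, Eif3l and Eif4g1 in 3, Eif4ebp2 in 2 and Eef1e1 in 1, and under both other scalings Eif3l, Eif4g1 and Eif4ebp2 did not pass. The number of members with a higher response was 2 without control hair cell replicate 1 and 1 without control hair cell replicate 2. Over all genes tested this number was 725 and 678 in these fits, against 1102 in the main fit. The number of members with a lower response was under 3 in 9 of the 12 fits. The exceptions were those without treated hair cell replicate 3, control non-hair cell replicate 1 or treated non-hair cell replicate 3. Over all genes tested it was 485–1219 in the 12 fits, highest in these exceptions, against 1056 in the main fit.

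Between the control populations, 3 of the 5 eIF2B genes and Eif2ak4 (GCN2) were higher in hair cells than in non-hair cells, and the 5 genes of the eIF1 family, 5 of the 6 eEF1 rows, Eif2ak2 (PKR) and Eif2ak3 (PERK) were lower, although Eif1b and Eif1ad did not pass by median-of-ratios scaling. Of the 67 members 13 were higher and 27 lower in hair cells, where 31.9% and 42.2% of all genes tested were. By median-of-ratios scaling, which moved the median of all genes by 0.11 to -0.01, 21 members were higher and 21 lower (36.7% and 37.6% of all genes), and the 40 called members kept their direction. All 5 genes of the eIF1 family were lower in hair cells, with log2 differences of -0.74 to -0.20. The smallest of these, that of Eif1b, passed in 1 of 6 leave-one-out fits, the one without control non-hair cell replicate 3, and that of Eif1ad did not pass without control non-hair cell replicate 1. Eif2b4, Eif2b2 and Eif2b3 were higher by 0.76, 0.74 and 0.57 (adjusted p = 4.02e-06, 1.52e-06 and 2.77e-05). With the replicate number as a block, Eif2b5, Eif4g1 and Eif3i also passed (adjusted p = 0.0440, 0.0455 and 0.0203), and no call was lost. The data did not establish that these numbers pair the populations.

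Each of the 4 kinases differed between the populations, where 31.9% of all genes tested were higher and 42.2% lower in hair cells. Eif2ak4 was higher in hair cells by 0.69 (adjusted p = 2.25e-05), while Eif2ak2 was lower by a log2 difference of -1.16 (adjusted p = 2.37e-05), Eif2ak3 by -0.94 (adjusted p = 2.40e-06) and Eif2ak1 by -0.44 (adjusted p = 0.000732). Of the eEF1 rows 5 of 6 were lower in hair cells, Eef1a2 by -3.00 and Eef1b2, Eef1a1, Eef1g and Eef1d by -0.91, -0.75, -0.67 and -0.44, while Eef2 (-0.13) and Eef1e1 (-0.07) did not pass. Eif4ebp1 was lower (-1.74, adjusted p = 1.11e-05), at 9.73, 11 and 8.24 in control hair cells and 40.8, 32.1 and 24.9 in non-hair cells, and Eif5a2 was lower by -1.17 and Eif6 by -0.68.

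Eif4e1b, which encodes a cap-binding protein known from oocytes, had 76, 64 and 67 reads in control hair cells, 67, 76 and 72 in treated hair cells and 1 to 3 reads in each non-hair cell replicate. Over the control replicates there were 207 reads in hair cells and 5 in non-hair cells, and relative to depth the hair cell level was higher by a factor of 45 (95% exact interval 19.0–140.0, for counting error only). Its level in hair cells was nevertheless low, at 1.39 ± 0.127 RPKM (SD, n = 3).

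**Figure D5:**
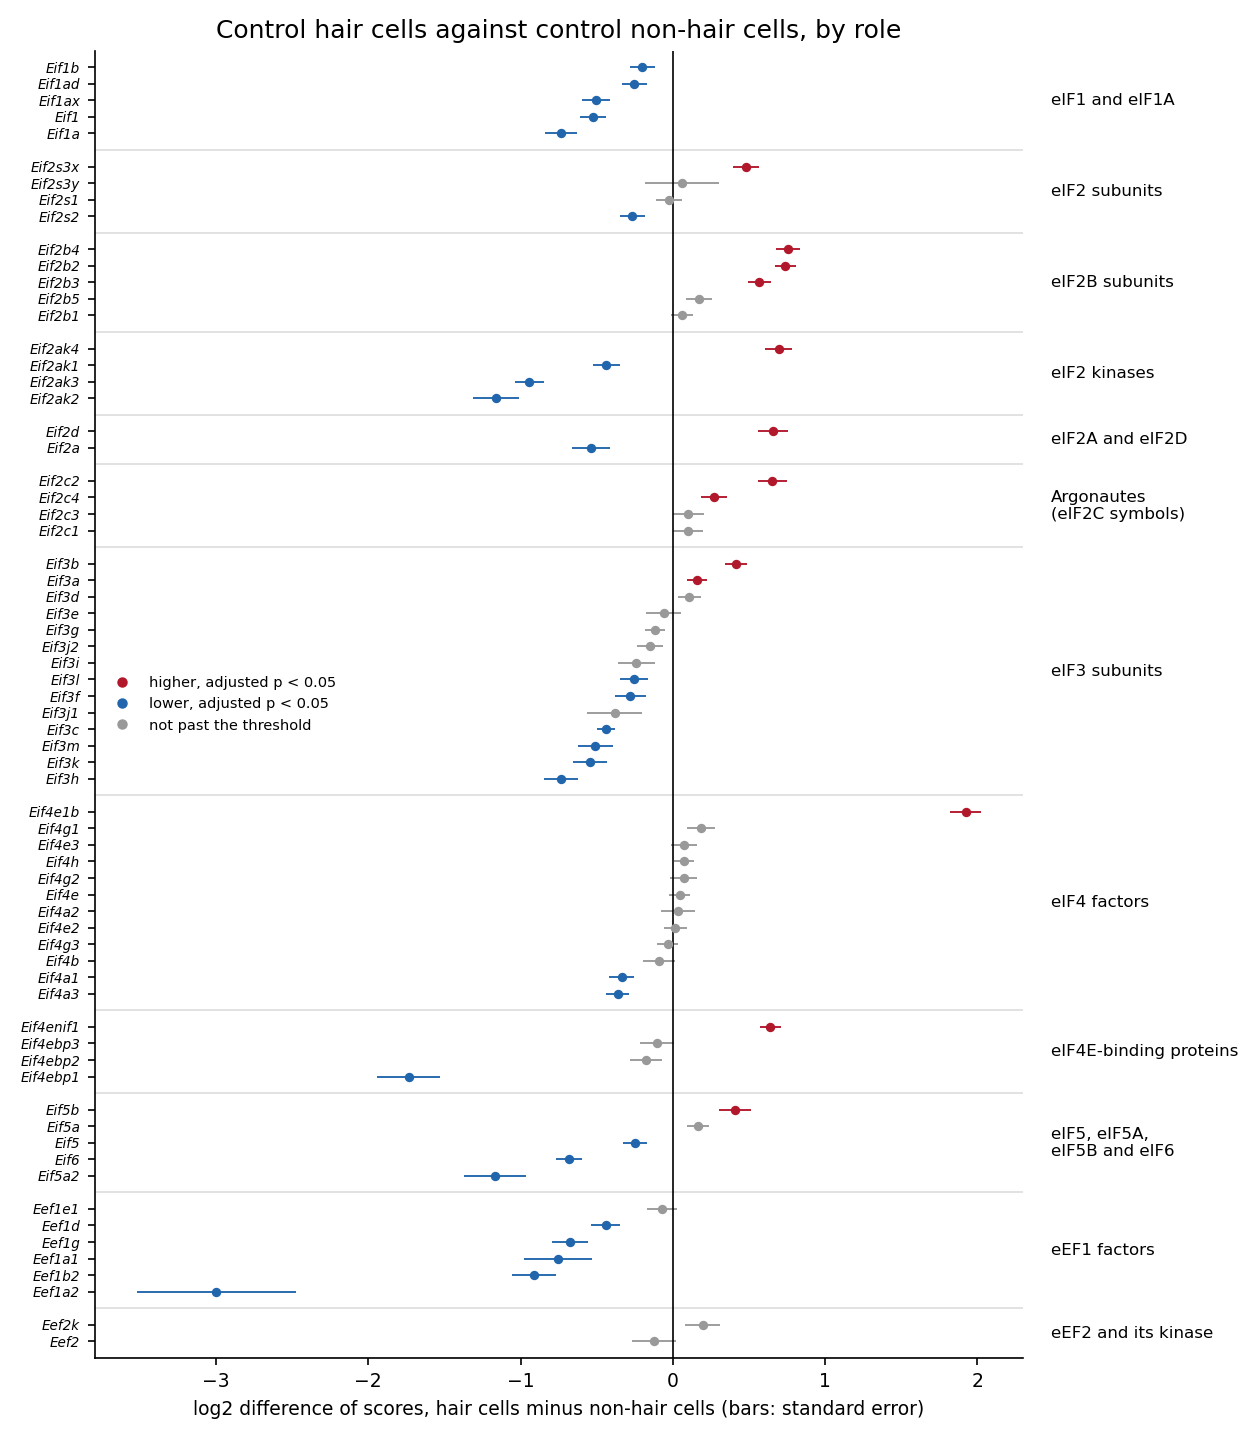
Log2 difference in normalised read score between hair cells and non-hair cells, both without gentamicin, for each of the 67 members, grouped by role, with the limma standard error as a bar (red, higher and blue, lower at an adjusted p under 0.05; grey, not past it). Eif4e1b is farthest to the right at 1.92, a value held down by the 1 added to each score, and Eef1a2 farthest to the left at -3.00, while 3 of the 4 kinases are lower and Eif2ak4 is higher in hair cells.

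Levels of different genes were compared only as RPKM, the recovered reads per kilobase of the longest coding transcript scaled to equal depth. Eef1a1 was the highest member in every group, at 2533 ± 110.3 in control hair cells, 1347 ± 167 after gentamicin and 4361 ± 457 in control non-hair cells (mean ± SD, n = 3 each). Eef2 followed with 948 ± 41.7, 562 ± 23.4 and 1052 ± 43.5. In control hair cells the next were Eef1g (278 ± 8.23), Eif5a (241 ± 7.95) and Eif4a2 (221 ± 6.75). In treated hair cells Eif1 (302 ± 26.4) came next after Eef2, followed by Eif5a (268 ± 6.10), and the replicate ranges of these 2, 272–319 and 264–275, overlapped. Per kilobase, Eef1a1 exceeded Eef1a2 by 222–655 times in control hair cells and by 54.3–168 times in control non-hair cells, Eif5a exceeded Eif5a2 by 80.1–107 and 29.5–48.7 times, Eif1a exceeded Eif1ax by 1.81–1.89 and 2.05–2.40 times, and Eif2s3x exceeded Eif2s3y by 2.78–4.37 and 1.96–3.13 times.

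Other genes of translation were taken from 6 lists of 58 genes, of which 56 were tested and Dph6 and Dph7 were not analysed here. In hair cells 19 rose and 8 fell, with a median log2 difference of 0.13, where 14.8% of all genes rose and 18.4% fell. Under scaling by total reads 26 rose and 5 fell (19.8% and 12.2% of all genes). The difference between the responses passed for 3 with a higher and 3 with a lower response in hair cells (6.85% and 6.57% of all genes). Between the control populations 15 were higher and 21 lower in hair cells (31.9% and 42.2% of all genes), and 22 and 19 by median-of-ratios scaling (36.7% and 37.6%). Among release and recycling factors, 4 of 9 rose and 1 fell. Etf1, the stop codon reader eRF1, rose by 0.45 (adjusted p = 0.000599), and Hbs1l, a ribosome rescue GTPase, fell by 0.25 (adjusted p = 0.0295), but did not pass under scaling by total reads (-0.15) or without control replicate 1 or 2 or treated replicate 1 or 2. Among the mRNA-binding and helicase partners of eIF4F, 4 of 11 rose and 4 fell. Pabpc4, a poly(A)-binding protein, rose by 0.37 and Mknk2, a kinase of eIF4E, scored 96.8, 108 and 101 in control and 54.6, 58.9 and 69.5 in treated hair cells, a fall without overlap (log2 difference -0.74, adjusted p = 0.000211). In the mTORC1 list 3 of 15 rose and 3 fell. Mlst8, a subunit of the complex, was at 0.43 (adjusted p = 0.00140) and Sesn2, an inhibitor of mTORC1, at -0.70 (adjusted p = 0.00764). The others that rose were Rps6kb1 (0.31) and Rheb (0.25). Tsc1 (-0.31) and Mtor, the kinase of the complex (-0.28, adjusted p = 0.029), also fell. In this list the difference between the responses passed for Mtor alone (-0.51, adjusted p = 0.0210).

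Of 5 genes for the eIF2 alpha phosphatase and GCN2 partners, 2 rose and 0 fell. For this list and those that follow, 14.8% of all genes tested rose in hair cells and 18.4% fell. Ppp1r15a (GADD34), the stress-induced subunit that directs the phosphatase to eIF2, scored 89.2, 112 and 95.7 in control and 163, 213 and 143 in treated hair cells. The groups did not overlap, and Ppp1r15a rose by 0.79 (adjusted p = 0.0181), with 106, 144 and 127 without and 84.4, 72.5 and 137 with gentamicin in non-hair cells (adjusted p of the difference between the responses 0.0292). In hair cells the call was lost without control replicate 1, control replicate 3 or treated replicate 2, with log2 differences of 0.72, 0.77 and 0.63. The difference between its responses passed in 4 of the 12 leave-one-out fits. Of the enzymes that make hypusine on eIF5A and diphthamide on eEF2, 3 of 6 rose and 0 fell. Dph2, of diphthamide synthesis, scored 7.38, 5.62 and 6.53 in control and 11.8, 12.7 and 13.6 in treated hair cells and rose without overlap (log2 difference 0.97, adjusted p = 0.000245). Of 10 mitochondrial translation factors 3 rose and 0 fell, and Mtrf1l, a mitochondrial release factor, rose by 0.86 (adjusted p = 0.000892). In non-hair cells 1 gene of the 56 passed, where 0.236% of all genes tested rose and 0.106% fell. This was Dhx29, a helicase for structured mRNA leaders, which rose by 0.59 (adjusted p = 0.0301). It did not pass without control replicate 1 or 2 or treated replicate 1 or 2, nor with the non-hair cell groups in a model of their own (adjusted p = 0.391).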

How the data were processed

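Each of 4 samples had a deposited table of 23420 genes in 3 replicate columns (12 in all). Per the labels and the methods, the authors aligned trimmed 50 bp reads to mm10 with TopHat2 and deposited a normalised read score per gene. The methods name RPKM, but the scores were not divided by gene length. After 1 was subtracted, the smallest step of a column was taken as 1 read, and 72.4–73.7% of low values were whole within 0.02 reads, so no count test was used. A depth of 22400577–28152173 reads leaves genes with few reads imprecise.

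Log2 scores of genes with at least 100 recovered reads over all replicates went into 1 limma model (version 3.58.1, R 4.3.3) of all 4 groups with a variance trend and two-sided tests. Genes were called at a Benjamini-Hochberg adjusted p under 0.05 over all 16077 genes. The study names a different module of PartekFlow, not available here. Tables and figures were made with Python 3.11.15, pandas 2.3.3, numpy 2.4.6 and matplotlib 3.10.9. Values of each replicate are given for members that passed in hair cells, or in the difference between responses, without overlap and with a log2 difference of at least 0.5, for all eIF2 kinases and for paralog pairs; any others were chosen after their values were seen. Pathway genes named are those with the largest called change of each direction in a list and all those called in hair cells in the mTORC1 list. Members and lists were chosen with earlier results of these data known. Marker lists covered hair, supporting, mesenchyme, endothelial, macrophage, Schwann cell and melanocyte and red blood cell genes; endothelial genes summed to 6.84–22.8 and Schwann cell and melanocyte genes to 40.9–82.2 in hair cells, and both were lower on average with gentamicin.

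The study calls the replicates biological. The replicate numbers are those of the columns. Deviations of control hair and non-hair cells with the same number correlated at 0.216, 0.316 and 0.200. For treated hair and non-hair cells the values were 0.377, -0.0386 and -0.0179. With 3 replicates per group these values cannot show that the numbers pair the populations. Control and treated hair cells had 0.0369, 0.0523 and 0.0369 and non-hair cells 0.208, -0.232 and 0.683, which does not establish pairing. The fit was tested on simulated data. Alternatives were 2 other scalings, an offset of 0.1, and no minimum or a minimum of 1000 reads. Others were no trend, compared groups alone, a replicate block and each replicate left out. The study's criteria (p under 0.01, fold above 1.2) were also applied, to limma p-values and not to the study's own tests.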

Additional observations from a re-analysis of the deposited data

Results flagged for a closer look

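For 8 members the gentamicin response differed between hair cells and non-hair cells by the test of the difference itself (limma, adjusted p under 0.05). The response was higher in hair cells for 4 and lower for 4, where 6.85% and 6.57% of all genes tested passed. Only 1 of the 8, Eif1, passed in all 12 fits that each left out 1 replicate. The log2 response in hair cells minus that in non-hair cells was 0.61 for Eif1, 0.49 for Eef1e1, 0.45 for Eif5 and 0.42 for Eif2b2. It was -0.49 for Eif4ebp2, -0.45 for Eif4g1, -0.44 for Eif3l and -0.41 for Eif3b. Groups of 3 replicates are too small for a test of single outlying replicates, so none was made.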

How the results depend on the processing

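Each of the 28 members called in hair cells kept its direction in all alternatives run, and 20 passed in every one. The 6 fits without 1 hair cell replicate gave 13–16 members higher and 8–11 lower. Over all genes tested these fits gave 1648–2214 higher and 1734–2536 lower, against 2374 and 2958 in the main fit. With the replicate block, 17 members were higher and 14 lower in hair cells and 0 and 0 in non-hair cells. There were 5 and 7 for the difference between responses and 15 and 28 between the control populations. Over all genes tested the block gave 2425 and 3238, 8 and 3, 1115 and 1191, and 5171 and 6852. The data did not show that the replicate numbers pair control and treated samples. In non-hair cells 2 members were higher under scaling by total reads, against 94 of all genes. With no minimum of reads, a minimum of 1000 reads or no trend, 1 member was higher, against 41, 37 and 30 of all genes. The study's criteria, applied to limma p-values, gave 5 higher and 1 lower, against 512 and 363 of all genes. Leaving out a replicate gave 0 to 0 members, against 2–87 higher and 0–72 lower of all genes. For the difference between responses, scaling by total reads gave 8 higher and 1 lower, against 1500 and 716 of all genes. Median-of-ratios scaling and no minimum each gave 2 lower members, and a minimum of 1000 reads and the replicate block 7. The lower counts over all genes were 968, 971, 1079 and 1191. Without single replicates the counts were 1–4 higher and 0–6 lower, against 673–1159 and 485–1219 of all genes. Between the control populations median-of-ratios scaling gave 21 higher, against 5898 of all genes. Leaving out replicates gave 11–13 higher and 23–27 lower, against 4792–4957 and 6322–6557 of all genes. Beyond the eIF1 genes, called differences of Eif2c4, Eif3a, Eif3f, Eif3l and Eif5 between the populations did not pass in 1 or more of these leave-one-out fits. The cause of these moves was not tested. No gene's called direction reversed. Depth limits the rows with few reads, above all Eif4e1b and, in hair cells, Eef1a2.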
